A study of Mus musculus with 27 samples.

Results

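The mitosis genes described here are 43 genes whose proteins drive and carry out the division of chromosomes and of the cell. They form a list of gene names and were matched by symbol to the gene IDs of a table of 48440 genes. All 43 were found, and all 43 were among the 18684 genes that passed the filter on low counts and were tested. By role they comprised 5 cyclins and mitotic kinases, 2 transcription factors, 4 spindle checkpoint genes, 7 centromere and kinetochore genes, 4 genes of the chromosomal passenger complex, 8 genes of spindle assembly, 7 of the central spindle and cytokinesis, 2 of the anaphase-promoting complex and 4 other proliferation genes.

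RNA was sequenced from fibroblasts taken from the lungs of wild-type C57BL/6 mice (primary cells) and grown in 3% oxygen with 15% fetal bovine serum, in 27 libraries that fell into 9 groups of 3. The cells were kept in DMSO, the solvent, or in 3 uM KU60019, which blocks ATM, a kinase that signals DNA breaks, for 15 d or for 35 d. From each of those 4 groups another group was made in which the agent was removed and culture went on for 20 d more, called DMSO 15 d removed, KU60019 15 d removed, DMSO 35 d removed and KU60019 35 d removed below. The ninth group was exposed to X-rays at 10 Gy and collected 10 d later, and the series' design names it as the positive control for senescent cells. Irradiated cells had no control group of equal time and are set against DMSO 15 d. The library names run from S1 to S3 in DMSO 15 d, S4 to S6 in KU60019 15 d, S7 to S9 in DMSO 15 d removed, S10 to S12 in KU60019 15 d removed, S13 to S15 in DMSO 35 d, S16 to S18 in KU60019 35 d, S19 to S21 in DMSO 35 d removed, S22 to S24 in KU60019 35 d removed and S25 to S27 in irradiated cells. Every triplet of values below is given in that order. The same 3 end numbers recur in the names of each group, and the labels do not say whether they stand for mice, cultures or preparations, so that p-values here measure spread among libraries that may be technical repeats. The removed groups were also 20 d older in culture than the groups they came from. In comparisons with those groups removal and time cannot be told apart. The 15 d removed groups matched the 35 d groups in total culture time, and these were not compared by a test here.

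Mitosis genes are transcribed in waves: their RNAs are low in resting cells and in G1, and rise in G2 as cells prepare to divide. In resting cells the DREAM complex, whose MuvB core binds the element TTTGAA (called CHR) near the start sites of such genes, keeps them low, and in dividing cells MuvB joins the factors B-MYB and FOXM1 on the same promoters. The factor NF-Y binds CCAAT elements there. Because only cycling cells make much of these RNAs, their sum is widely used as a measure of how many cells of a culture are dividing, and cultured lung fibroblasts lose them when they become confluent or senescent. In RNA from a whole culture, fewer cycling cells and less RNA per cycling cell cannot be told apart.

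The promoters are shown because the members' levels moved together over the 9 groups. RefSeq windows on GRCm38.p6, from 250 bases before to 50 bases after the start, were matched for 34 of 43 members. No entry was matched for Incenp, Aurkb, Kif20a, Dlgap5, Ccna2, Pbk, Foxm1, Tpx2 and Ska1. A gene with several windows was counted if any of them held the motif. TTTGAA, read on either strand, occurred in 26 of 34 members (76.5%) and in 20.2% of the 27025 genes with a window. CCAAT, read on either strand, also occurred in 26 of 34 (76.5%), against 41.1% of those genes. Both motifs were present in the same window for 23 members (67.6%) and 7.97% of those genes, and at least 2 CCAAT for 19 (55.9%) against 13.3%. A near variant, TTCGAA, was found for 3 members (8.82%) and 1.80% of those genes. A match of TTTGAA and a match of CCAAT may share an end letter. Within 50 bases of the start, on either side, TTTGAA was found in 24 members, a count that was not made for all genes. Bub1, Ccnb1 and Cenpe had CCAAT and no TTTGAA, Anln, Kif2c and Ndc80 had TTTGAA and no CCAAT, and Birc5, Mad2l1, Mxd3, Nuf2 and Nusap1 had neither. Of the 38 genes of a DNA replication list 31 had a window, and 4 of those 31 (12.9%) held TTTGAA. Of 69 other mitosis genes 58 had a window, and 31 of those 58 (53.4%) held it.

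The 6 stretches below are from a mitotic kinase (Cdk1), a topoisomerase that untangles chromosomes (Top2a), the activator of the anaphase-promoting complex (Cdc20), a spindle motor (Kif11), a bundler of the central spindle (Prc1) and the proliferation marker Ki-67 (Mki67). They were chosen to show the motifs of members on which the results turn, including the member whose levels followed the others least (Prc1). Each is written 5′ to 3′ on the strand of its gene, and capitals mark the CHR element, its near variant and CCAAT, on either strand. They lie on GRCm38.p6 at chr10:69352913-69353032 (minus strand) for Cdk1, chr11:99024190-99024309 (minus) for Top2a, chr4:118437344-118437463 (minus) for Cdc20, chr19:37376262-37376381 (plus) for Kif11, chr7:80294356-80294475 (plus) for Prc1 and chr7:135716380-135716579 (minus) for Mki67.
Cdk1: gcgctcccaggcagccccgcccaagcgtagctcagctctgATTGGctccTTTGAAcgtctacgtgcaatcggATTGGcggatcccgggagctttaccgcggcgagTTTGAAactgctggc
Top2a: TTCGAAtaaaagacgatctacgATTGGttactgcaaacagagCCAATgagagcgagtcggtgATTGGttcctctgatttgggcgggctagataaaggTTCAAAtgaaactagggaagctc
Cdc20: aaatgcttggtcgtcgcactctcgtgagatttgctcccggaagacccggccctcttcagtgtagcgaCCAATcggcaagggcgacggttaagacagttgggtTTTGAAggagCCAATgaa
Kif11: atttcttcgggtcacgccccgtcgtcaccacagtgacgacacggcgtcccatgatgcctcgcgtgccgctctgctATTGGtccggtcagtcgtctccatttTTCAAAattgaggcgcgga
Prc1: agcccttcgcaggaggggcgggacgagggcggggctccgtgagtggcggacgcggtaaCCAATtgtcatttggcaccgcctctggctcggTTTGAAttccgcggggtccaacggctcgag
Mki67: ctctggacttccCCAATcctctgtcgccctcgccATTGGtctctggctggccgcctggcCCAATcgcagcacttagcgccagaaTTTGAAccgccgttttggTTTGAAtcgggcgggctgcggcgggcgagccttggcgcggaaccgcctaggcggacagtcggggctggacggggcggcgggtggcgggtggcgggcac
A match is a run of letters and not a measured binding site.

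Libraries held 20659745 to 50859493 counts assigned to genes, with a median of 31265114. All 9 fibroblast markers had counts in every library of every group. Their summed level was 28666 to 41553 CPM (counts scaled to a common library total) in DMSO 15 d, 9343 to 11377 in KU60019 15 d, 45316 to 51431 in DMSO 15 d removed, 21007 to 25289 in KU60019 15 d removed, 35310 to 41765 in DMSO 35 d, 15316 to 16022 in KU60019 35 d, 12923 to 16306 in DMSO 35 d removed, 10084 to 12631 in KU60019 35 d removed and 13830 to 19750 in irradiated cells. The 6 endothelial markers summed to 20.4 to 67.9 CPM in DMSO 15 d and to 0.892 to 5.75 CPM in the other groups. Sums of markers below run over the whole list (6 Schwann cell and 7 macrophage markers), with those not tested included. Library S19 of DMSO 35 d removed stood apart in its TMM scaling factor (0.694, against 0.879 to 1.12 in all others) and in its share of mitochondrial RNA (3.77%, against 2.06% and 1.85% in its group). Library S2 of DMSO 15 d stood apart in its length trend: the rank correlation across genes between a gene's level, relative to its mean over all libraries, and its length was -0.12 there and 0.36 and 0.34 in its group. Library S13 of DMSO 35 d also departed from its group in that correlation, at 0.08 against 0.37 and 0.32. The part of cell makeup and mitochondrial share in the results was not tested. With the length trend removed from the fit, 42 members were called in irradiated cells against DMSO 15 d, and 43 in DMSO 35 d removed against DMSO 35 d, in KU60019 35 d removed against DMSO 35 d removed and in the 35 d interaction described below. That fit called 31.1%, 62.5%, 50.6% and 32.2% of all genes, in the same order.

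All 43 members had their highest mean in DMSO 35 d removed. For Prc1 and Kif20a that mean was raised by library S21, at 35.6 and 42.7 CPM. Libraries S19 and S20 were at 8.10 and 7.28 CPM for Prc1 and at 5.86 and 10.7 CPM for Kif20a, within the range of DMSO 15 d. The lowest mean was in irradiated cells for 37 members and in KU60019 35 d removed for 6, namely Plk1, Incenp, Aurka, Prc1, Kif20a and Anln. The summed level of all members was 416.7, 465.0 and 675 CPM in DMSO 15 d, and averaged 519 there, 452 in KU60019 15 d, 390.1 in DMSO 15 d removed, 361 in KU60019 15 d removed, 350.1 in DMSO 35 d and 294 in KU60019 35 d. The same sum averaged 3704 CPM in DMSO 35 d removed, with 2948, 3741 and 4422 in its libraries, 154 in KU60019 35 d removed (141, 179 and 141) and 125 in irradiated cells (124, 133 and 118). As shares of all counts, the members took 0.325% in DMSO 35 d removed and 0.0130% in irradiated cells. The first 6 groups thus lay close together, 1 group stood far above them and 2 stood below them, with no overlap of the libraries of these 3 levels in the summed value.

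**Figure D1:**
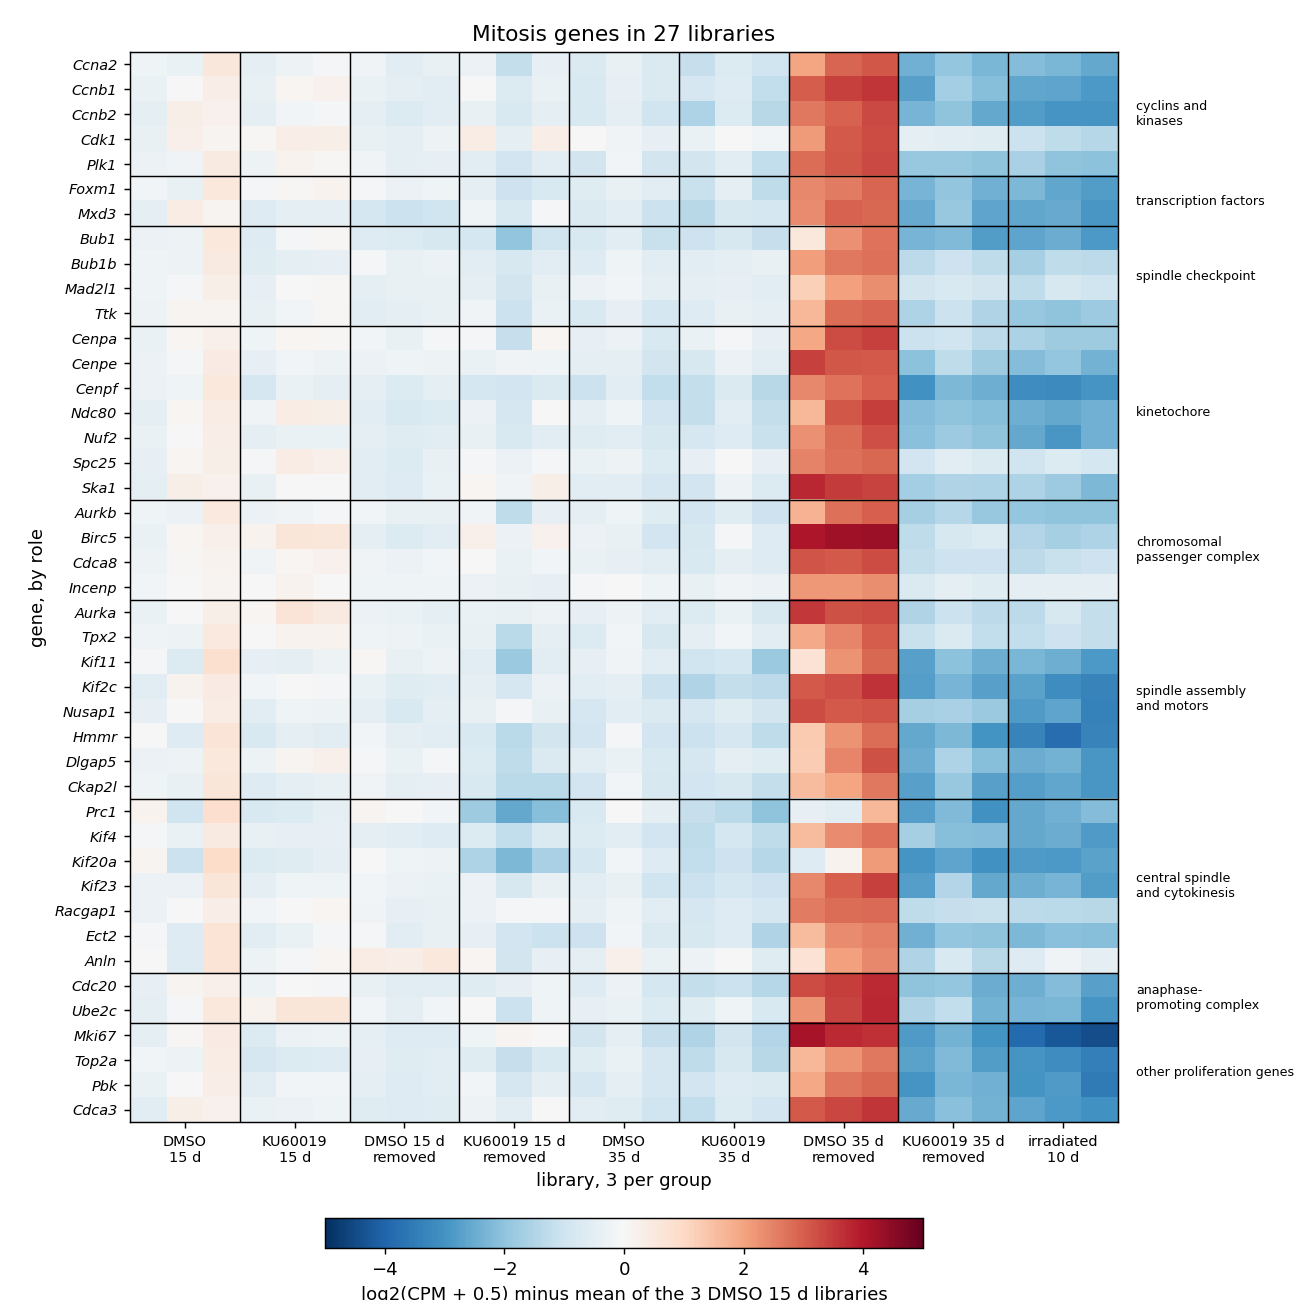
Level of each of the 43 members (rows, ordered by role) in each of the 27 libraries (columns, by group), as log2(CPM + 0.5) minus the mean of the 3 DMSO 15 d libraries. The DMSO 35 d removed libraries are the high block, and the KU60019 35 d removed and irradiated libraries are the low blocks.

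On a scale that takes length into account, TPM from the authors' deposited table, the members' mean levels in DMSO 15 d ran from 1.44 ± 0.457 TPM (SD, n = 3) for Ska1, a kinetochore protein that tracks microtubules, to 20.7 ± 7.62 TPM for Top2a. In DMSO 35 d removed they ran from 5.96 ± 6.61 TPM for Prc1 to 102 ± 40.3 TPM for Cdc20. The patterns of the members over the 9 groups were alike. Over the 903 pairs of members, the median Pearson r of the mean log2 levels across the 9 groups was 0.97 and the lowest was 0.55. Without DMSO 35 d removed, the median over 8 groups was 0.943 and the lowest 0.296. The members least like the median of all were Prc1 (r = 0.767), Kif20a (r = 0.854) and Anln (r = 0.912), all genes of the central spindle and cytokinesis. These correlations describe 9 points that share libraries and scaling, and no test is attached to them.

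Prc1 and Kif20a, a kinesin of the central spindle, were uneven within groups. Prc1 was at 12.5, 5.23 and 20.2 CPM in DMSO 15 d and at 8.10, 7.28 and 35.6 CPM in DMSO 35 d removed. Kif20a was at 10.5, 4.26 and 18.3 CPM and 5.86, 10.7 and 42.7 CPM in the same groups. In both groups the library with the last end number, S3 and S21, was the highest for both genes. The low libraries were S2 of DMSO 15 d and, for Prc1, both S19 and S20 of DMSO 35 d removed.

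Irradiated cells were compared with DMSO 15 d to see how far cells labelled as senescent controls had lost mitosis RNAs. Of the 43 members, 42 fell and none rose, while 16.8% of all genes tested fell and 30.9% changed in either direction. The members' median log2 fold change was -3.03, with a range of -4.80 to -0.49, and the median of all genes tested was -0.01, as it lay within -0.04 to 0.03 in every comparison of the 14. The libraries of the 2 groups did not overlap for 42 members, all lower after irradiation, against 21.8% of all genes.

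Mki67, whose protein coats mitotic chromosomes, was at 19.05, 28.2 and 35.6 CPM in DMSO 15 d and 1.34, 0.935 and 0.754 CPM in irradiated cells. All irradiated libraries lay far below all DMSO libraries (log2 fold change -4.74 ± 0.29, adjusted p = 6.70e-10). Hmmr, a spindle assembly protein, had the lowest value of all members, from 8.88, 5.52 and 14.4 CPM to 0.429, 0.175 and 0.444 CPM (log2 fold change -4.80 ± 0.46, adjusted p = 1.67e-07). Pbk, a mitotic protein kinase, went from 5.04, 6.27 and 8.30 CPM to 0.376, 0.467 and 0.0887 CPM (log2 fold change -4.29 ± 0.37, adjusted p = 4.20e-08). Both had values of under 1 CPM in every irradiated library.

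Among cyclins and kinases, Ccnb1, the cyclin that activates CDK1 at mitotic entry, was at 5.74, 7.24 and 9.43 CPM in DMSO 15 d and at 0.805, 0.759 and 0.577 CPM in irradiated cells (log2 fold change -3.36 ± 0.30, adjusted p = 6.34e-08). Its partner Cdk1 went from 24.7, 38.3 and 35.4 CPM to 14.9, 13.1 and 11.6 CPM (log2 fold change -1.31 ± 0.23, adjusted p = 2.08e-04). Plk1, a kinase of mitotic entry and spindle assembly, went from 6.62, 7.27 and 11.4 to 2.33, 1.64 and 1.60 CPM (log2 fold change -2.18 ± 0.26, adjusted p = 2.73e-06). None of the 3 genes overlapped between the groups. Foxm1, the transcription factor that drives many of these genes, was at 7.54, 6.31 and 12.4 CPM and then at 1.40, 0.964 and 0.799 CPM (log2 fold change -3.03 ± 0.28, adjusted p = 8.07e-08).

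The smaller falls were found in several roles. Incenp, the scaffold of the chromosomal passenger complex, went from 18.8, 20.1 and 22.9 CPM to 14.5, 14.6 and 14.997 CPM (log2 fold change -0.49 ± 0.10, adjusted p = 8.02e-04), a small fall with little spread between libraries. Spc25, a subunit of the NDC80 kinetochore complex, went from 7.78, 11.2 and 13.1 to 4.96, 6.34 and 5.46 CPM (log2 fold change -0.94 ± 0.19, adjusted p = 8.44e-04). Anln, an actin-binding protein of the cleavage furrow, was the 1 member not called, at 20.3, 12.97 and 34.1 CPM and 13.01, 18.6 and 15.1 CPM (log2 fold change -0.53 ± 0.35, adjusted p = 0.266), and its libraries overlapped. By role, the median log2 fold change was -1.49 for the passenger complex and -2.22 for the spindle checkpoint, and reached -3.35 for spindle assembly, -3.42 for the transcription factors and -3.79 for the other proliferation genes. The differences between roles were not tested.

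The same direction was found with each other DMSO group as control. Against DMSO 35 d, 40 members fell with a median of -2.39, and Spc25 and Tpx2 were lost from the calls. Against DMSO 15 d removed, 40 fell with a median of -2.57, and Spc25 and Incenp were lost. Against DMSO 35 d removed all 43 fell, with a median of -5.62, a value not recomputed without library S19. The shares of all genes called in either direction with these controls were 27.1%, 26.1% and 53.9%, in the same order. All 6 endothelial markers also fell in irradiated cells against DMSO 15 d, and their part in the members' result was not tested. Without library S2 of DMSO 15 d the count of members that fell was again 42.

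DMSO 35 d removed was compared with DMSO 35 d, both of them solvent controls, since it is the control for KU60019 35 d removed. Of the 43 members, 42 rose and none fell, in a comparison in which 31.5% of all genes tested rose, 32.6% fell and 64.1% changed. The median log2 fold change of the members was 3.44, with a range of 1.04 to 4.81. The libraries did not overlap for 41 members, all higher in DMSO 35 d removed, against 29.6% of all genes.

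Mki67 was at 13.9, 19.2 and 11.8 CPM in DMSO 35 d and at 480.1, 357 and 338 CPM in DMSO 35 d removed (log2 fold change 4.71 ± 0.27, adjusted p = 1.48e-11). Every library of the later culture was far above every library of the earlier one. Birc5, the survivin subunit of the passenger complex, had the highest value, from 7.60, 7.32 and 4.73 CPM to 166, 191 and 193 CPM (log2 fold change 4.81 ± 0.25, adjusted p = 2.96e-12). Ska1 went from 1.12, 1.16 and 0.820 CPM to 32.2, 26.3 and 24.2 CPM (log2 fold change 4.75 ± 0.38, adjusted p = 1.43e-09). Cdc20, which turns on the anaphase-promoting complex, went from 8.35, 10.7 and 7.04 to 132, 153 and 182 CPM (log2 fold change 4.16 ± 0.22, adjusted p = 4.90e-12). All 4 genes were high in each of the 3 libraries of DMSO 35 d removed.

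Other members differed more among the 3 libraries. Ube2c, the ubiquitin-conjugating enzyme of the anaphase-promoting complex, was at 7.30, 7.70 and 5.93 CPM in DMSO 35 d and 48.7, 107 and 142 CPM in DMSO 35 d removed (log2 fold change 3.83 ± 0.38, adjusted p = 4.19e-08). Cenpa, the histone variant that marks centromeres, was at 10.4, 11.2 and 8.03 and 53.8, 136 and 152 CPM (log2 fold change 3.54 ± 0.32, adjusted p = 8.82e-09). Kif11, the motor that separates spindle poles, was at 4.96, 5.91 and 4.44 and 11.4, 33.5 and 51.8 CPM (log2 fold change 2.67 ± 0.46, adjusted p = 4.45e-05). For all 3 genes library S19 was the lowest of its group and still above every DMSO 35 d library.

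Bub1b, a kinase-like protein of the spindle checkpoint, went from 7.60, 10.3 and 8.07 to 53.6, 77.3 and 83.3 CPM (log2 fold change 3.05 ± 0.20, adjusted p = 7.83e-11), and Aurkb, the kinase of the passenger complex, from 4.77, 5.84 and 4.33 to 23.6, 48.5 and 56.98 CPM (log2 fold change 3.12 ± 0.31, adjusted p = 3.20e-08). The lowest values belonged to central spindle genes. Prc1, at 6.41, 10.8 and 7.76 CPM in DMSO 35 d and 8.10, 7.28 and 35.6 CPM in DMSO 35 d removed, was the 1 member not called (log2 fold change 1.04 ± 0.47, adjusted p = 0.0592), and its libraries overlapped. Kif20a, whose libraries also overlapped, was at 4.92, 8.51 and 5.83 CPM and then 5.86, 10.7 and 42.7 CPM (log2 fold change 1.63 ± 0.49, adjusted p = 0.00639). This call of Kif20a was lost without library S21 of DMSO 35 d removed. Anln was at 15.2, 25.1 and 16.6 and 35.2, 87.2 and 111 CPM (log2 fold change 2.04 ± 0.36, adjusted p = 5.52e-05).

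By role the median log2 fold change ran from 2.96 for the central spindle to 3.997 for the anaphase-promoting complex. Of 9 fibroblast markers, 2 rose and 7 fell in the same comparison, and whether this had a part in the members' rise was not tested. Without library S19 of DMSO 35 d removed, the count of members that rose was 43.

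**Figure D2:**
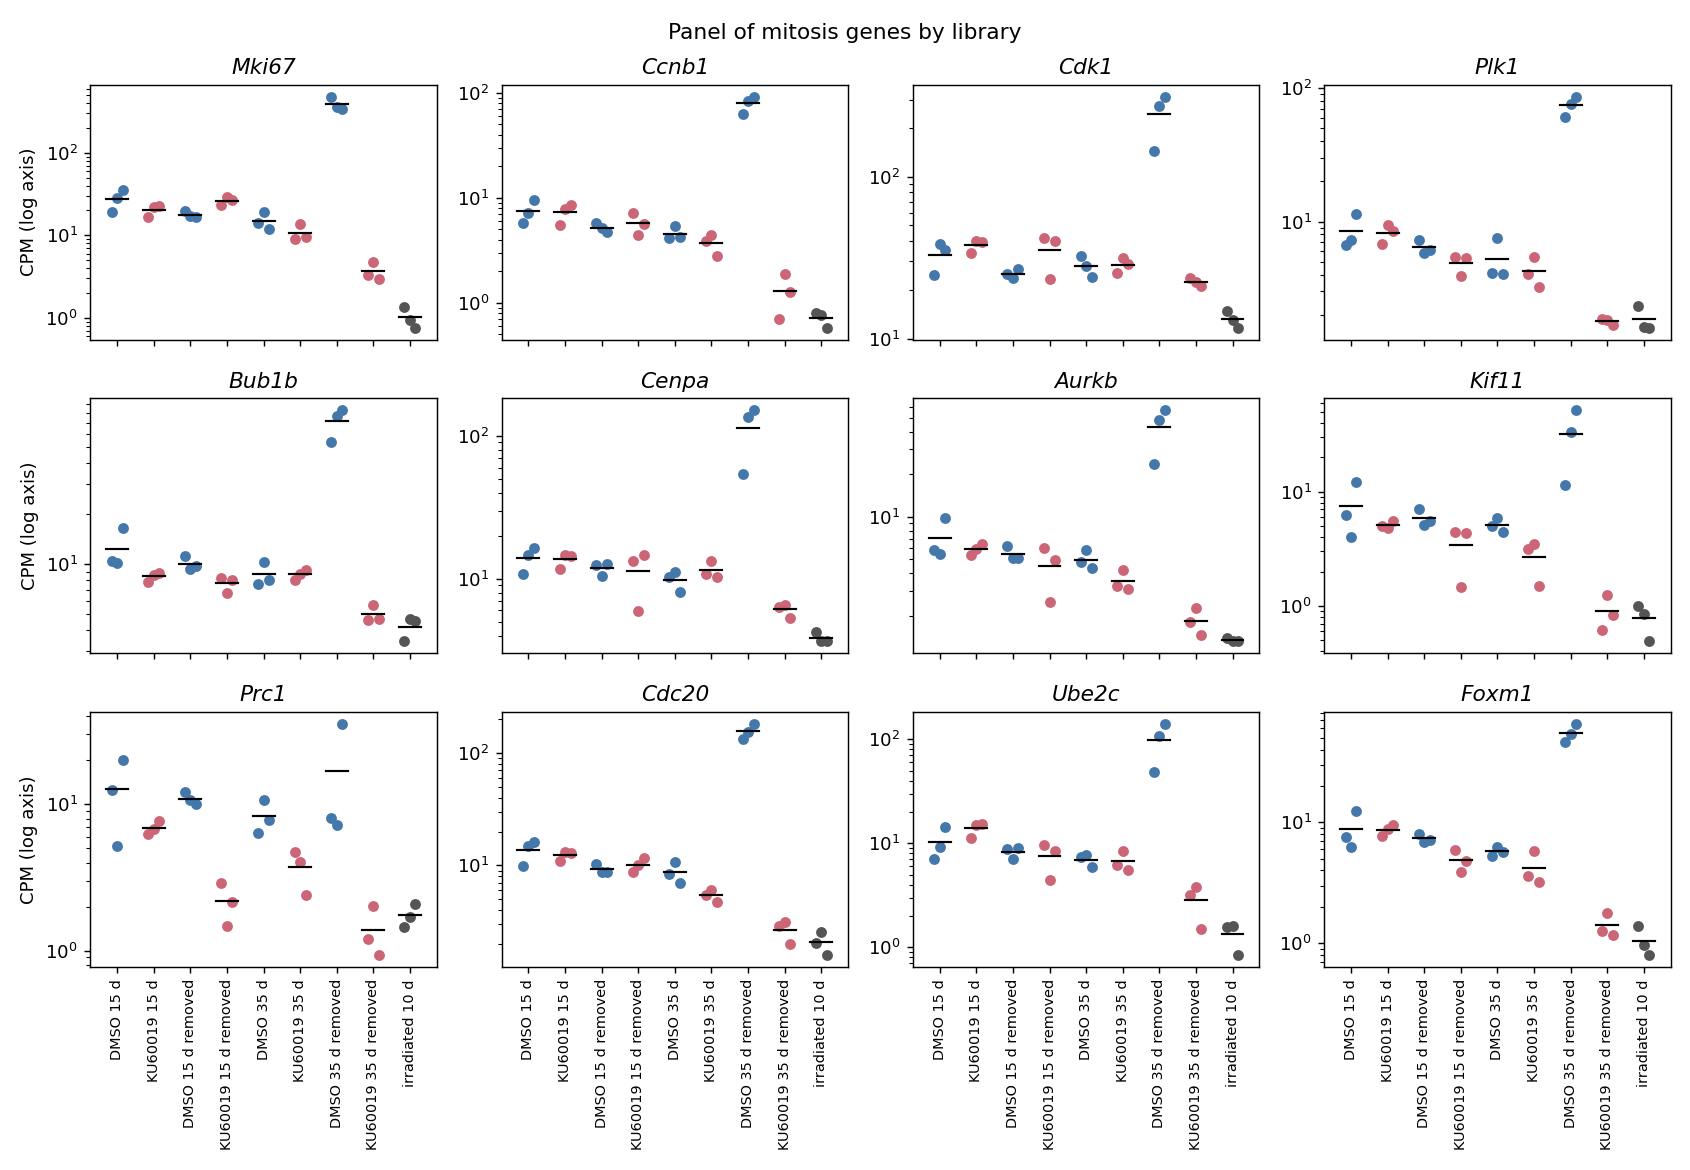
CPM (log axis) of 12 members in each library (points) of the 9 groups, with the group mean as a bar. The DMSO 35 d removed libraries lie above those of the other groups for all genes but Kif11 and Prc1, for which 1 and 2 of them lie among libraries of other groups.

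KU60019 35 d removed was compared with 3 groups, because its own control, DMSO 35 d removed, was the group with the highest levels. Against that control all 43 members fell, with a median log2 fold change of -5.15 and a range of -6.74 to -2.86, while 24.5% of all genes fell and 48.9% changed. All 43 had libraries that did not overlap, against 23.5% of all genes lower without overlap. Against KU60019 35 d, the same treatment before removal, 35 members fell and none rose, with a median of -1.35 and a range of -2.30 to -0.34, while 6.82% of all genes fell, 5.77% rose and 12.6% changed. The libraries were lower without overlap for 42 members, against 20.7% of all genes. Against DMSO 35 d, a comparison added after the rise in DMSO 35 d removed had been seen, 38 members fell and none rose, with a median of -1.75 and a range of -2.91 to -0.33, while 25.5% of all genes fell and 50.2% changed. All 3 comparisons share the libraries of KU60019 35 d removed.

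The values of single genes show the 2 sides of the large difference. Mki67 was at 480.1, 357 and 338 CPM in DMSO 35 d removed and at 3.32, 4.81 and 2.94 CPM in KU60019 35 d removed (log2 fold change -6.74 ± 0.30, adjusted p = 1.99e-13). It had been at 8.99, 13.7 and 9.50 CPM in KU60019 35 d, and fell from there as well (log2 fold change -1.55 ± 0.25, adjusted p = 8.03e-04). Against the 13.9, 19.2 and 11.8 CPM of DMSO 35 d it also fell (log2 fold change -2.03 ± 0.25, adjusted p = 2.96e-06).

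Ska1 had the next lowest value against the removed control, from 32.2, 26.3 and 24.2 CPM to 0.232, 0.349 and 0.320 CPM (log2 fold change -6.49 ± 0.43, adjusted p = 6.61e-11), and was at 0.721, 1.48 and 0.983 CPM before removal (log2 fold change -1.80 ± 0.43, adjusted p = 0.00960). Kif2c, a kinesin that takes microtubules apart at kinetochores, went from 2.68, 3.51 and 3.18 CPM before removal to 0.849, 1.32 and 0.881 CPM after it (log2 fold change -1.62 ± 0.29, adjusted p = 0.00161), and the control was at 76.4, 85.3 and 110.2 CPM (log2 fold change -6.48 ± 0.32, adjusted p = 5.60e-13). Both genes ended at or below 1.32 CPM in every library. The least changed members against the removed control were Anln (log2 fold change -3.13 ± 0.38, adjusted p = 6.66e-07), Mad2l1, a spindle checkpoint protein that holds back CDC20 (log2 fold change -2.88 ± 0.23, adjusted p = 1.61e-09), and Incenp (log2 fold change -2.86 ± 0.11, adjusted p = 1.17e-14).

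Among the cyclins and kinases, 4 of 5 fell from KU60019 35 d to KU60019 35 d removed. Ccnb1 was at 3.92, 4.46 and 2.81 CPM before removal and 0.695, 1.90 and 1.28 CPM after it (log2 fold change -1.54 ± 0.28, adjusted p = 0.00203). Plk1 was at 4.08, 5.41 and 3.23 and 1.85, 1.82 and 1.68 CPM (log2 fold change -1.26 ± 0.27, adjusted p = 0.00490). Cdk1, by contrast, was at 25.3, 31.6 and 28.96 CPM and 23.8, 22.2 and 21.2 CPM, a difference that did not pass the threshold (log2 fold change -0.36 ± 0.23, adjusted p = 0.305). Its libraries were nonetheless all lower after removal.

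Both transcription factors fell, Foxm1 from 3.58, 5.85 and 3.23 to 1.27, 1.78 and 1.18 CPM (log2 fold change -1.60 ± 0.27, adjusted p = 0.00110). Of the spindle checkpoint genes 3 of 4 fell. Bub1, the checkpoint kinase that recruits the others, was among the lowest of all members, from 2.23, 2.70 and 1.97 to 0.617, 0.698 and 0.294 CPM (log2 fold change -2.14 ± 0.49, adjusted p = 0.00815). Bub1b went from 7.97, 8.75 and 9.22 to 4.63, 5.66 and 4.67 CPM (log2 fold change -0.79 ± 0.19, adjusted p = 0.0110). Of the kinetochore genes 5 of 7 fell, and Cenpa stood at the threshold, at 10.7, 13.2 and 10.3 CPM and 6.37, 6.60 and 5.34 CPM (log2 fold change -0.91 ± 0.30, adjusted p = 0.05003).

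In the passenger complex 3 of 4 fell. Aurkb went from 3.27, 4.24 and 3.09 to 1.81, 2.25 and 1.47 CPM (log2 fold change -0.95 ± 0.31, adjusted p = 0.0497), and with the end number as a block its adjusted p was 0.0593. The calls of Aurkb, Cdca8 and Incenp were all lost without library S17 of KU60019 35 d, without library S22 or S24 of KU60019 35 d removed, with library size alone, without the filter on low counts and by limma on log2(TPM + 1), which leaves 0 of 4 in the complex. Incenp had the smallest difference of all 43 members, from 15.7, 18.4 and 16.8 to 12.3, 14.4 and 13.4 CPM (log2 fold change -0.34 ± 0.10, adjusted p = 0.0324). In spindle assembly 7 of 8 fell, Kif11 from 3.13, 3.48 and 1.497 to 0.617, 1.24 and 0.828 CPM (log2 fold change -1.62 ± 0.51, adjusted p = 0.0425).

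Of the central spindle and cytokinesis genes 5 of 7 fell. Kif20a went from 3.76, 4.32 and 3.18 to 0.772, 1.09 and 0.721 CPM (log2 fold change -2.14 ± 0.56, adjusted p = 0.0172), while Prc1, at 4.71, 4.04 and 2.39 CPM before and 1.196, 2.02 and 0.935 CPM after, was not called (log2 fold change -1.46 ± 0.53, adjusted p = 0.0693). Both genes of the anaphase-promoting complex fell, Cdc20 from 5.47, 6.05 and 4.68 to 2.89, 3.14 and 2.003 CPM (log2 fold change -1.03 ± 0.22, adjusted p = 0.00481) and Ube2c from 6.22, 8.42 and 5.57 to 3.16, 3.84 and 1.495 CPM (log2 fold change -1.27 ± 0.38, adjusted p = 0.0317). All 4 other proliferation genes fell, and Pbk had the lowest value of the 43, from 3.09, 3.88 and 3.65 to 0.386, 0.931 and 0.801 CPM (log2 fold change -2.30 ± 0.34, adjusted p = 3.95e-04).

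The 8 members not called against KU60019 35 d were Anln, Birc5, Cdk1, Cenpa, Mad2l1, Prc1, Spc25 and Tpx2, with log2 fold changes that were all below 0. The count of 35 that fell moved with the method and with single libraries. Those called numbered 11 by limma on log2(TPM + 1), and 16 without library S24 of KU60019 35 d removed, 21 without S22 and 22 without library S17 of KU60019 35 d. The shares of all genes called were 9.06%, 3.3%, 5.61% and 6.19%, in the same order. The mitochondrial share was 5.08 to 6.61% in KU60019 35 d and 2.96 to 3.31% in KU60019 35 d removed, and its part in the result was not tested. The count against DMSO 35 d removed was 43 without each of the 6 libraries in turn. In that comparison markers of other cell types changed too. Of 5 Schwann cell markers tested 4 rose, with a summed level of 11.3 to 20.5 CPM in DMSO 35 d removed and 9.65 to 37.04 CPM in KU60019 35 d removed. Of 5 macrophage markers tested 2 rose and none fell (10.1 to 12.1 CPM and 67.2 to 97.05 CPM). In each group 3 of the 7 macrophage markers on the list had counts in every library. Adgre1 was at 0 in both groups, C1qb in DMSO 35 d removed and Ptprc in KU60019 35 d removed. Of 5 pericyte markers 2 rose and 1 fell (38.9 to 46.4 CPM and 26.01 to 29.2 CPM). The part of all these markers in the members' fall was not tested.

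**Figure D3:**
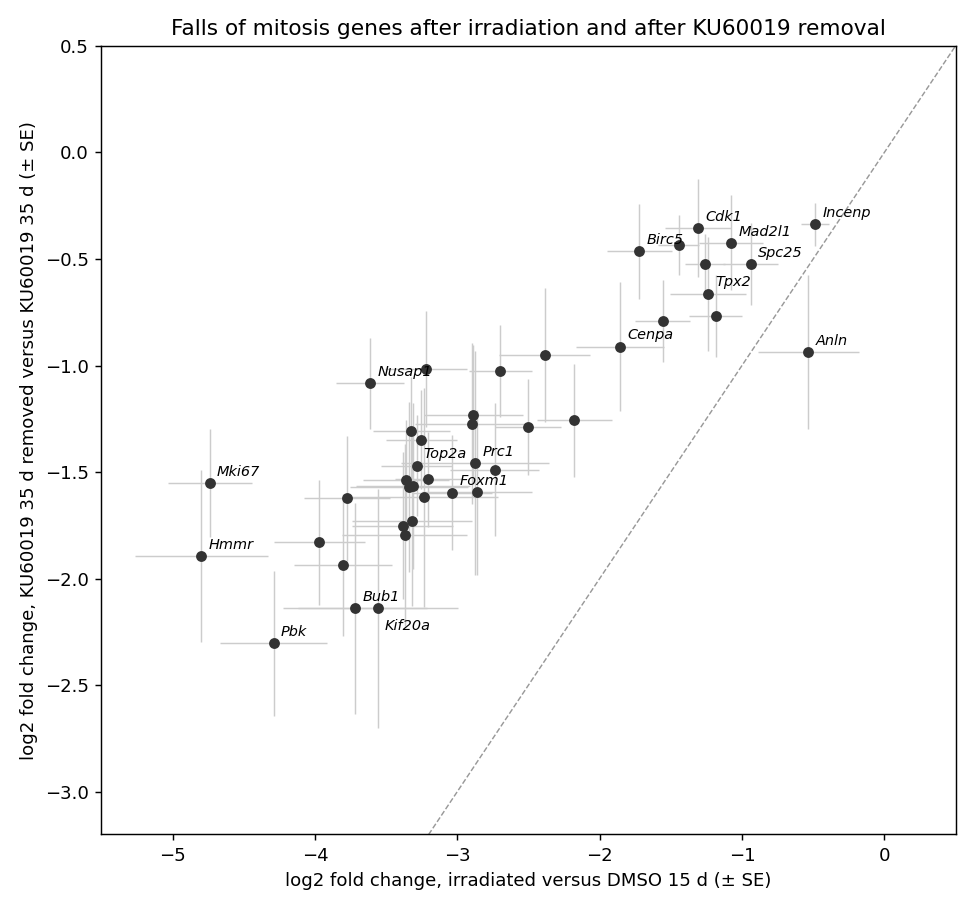
Log2 fold change ± SE of each member in irradiated cells against DMSO 15 d (x axis) and in KU60019 35 d removed against KU60019 35 d (y axis), with a dashed line of equality. All 43 points lie below 0 on both axes, and Pbk is the lowest on the y axis while Hmmr is the farthest left.

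The change of the KU60019 effect on removal was tested by an interaction. After 35 d, the effect of KU60019 after removal was lower than the effect before removal for all 43 members, with a median difference of -4.86 on the log2 scale and a range of -6.54 for Ska1 to -2.50 for Prc1, while 16.6% of all genes were called lower and 32.4% in either direction. For Mki67 the KU60019 effect was -0.48 ± 0.24 before and -6.74 ± 0.30 after removal, a difference of -6.26 ± 0.36 (adjusted p = 5.86e-11). This difference holds the rise of the members in DMSO 35 d removed as well as their fall in KU60019 35 d removed. After 15 d, 2 members, Mki67 (log2 fold change 1.01 ± 0.33, adjusted p = 0.0294) and Mxd3, a repressor of the MAX network (log2 fold change 1.40 ± 0.40, adjusted p = 0.0147), had a higher KU60019 effect after removal than before it and none a lower one, with 25.4% of all genes called. DESeq2 called 4 members and limma on log2(TPM + 1) none. Without library S1 of DMSO 15 d the count was also 4, and it was 1 without library S2 of DMSO 15 d, library S4 of KU60019 15 d or library S8 or S9 of DMSO 15 d removed. Without library S3 of DMSO 15 d the direction was mixed: 1 member, Mxd3, was higher after removal and 2, Foxm1 and Prc1, were lower. Without S11 of KU60019 15 d removed, Mki67 was lost and Cdca3 was called. After 35 d the count was 43 without S19, and 42 without S21, where Prc1 was lost.

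While KU60019 was present, few members were called against DMSO, though most had log2 fold changes below 0. After 15 d 2 of 43 members fell and none rose, in a comparison that called 30.3% of all genes (13.2% rose and 17.1% fell). The members' median log2 fold change was -0.25 (range -0.87 to 0.45), and that of all genes tested was -0.02. Of the 43 members 33 lay below 0. Top2a, which was at 46.7, 43.4 and 67.6 CPM in DMSO 15 d and 28.7, 32.3 and 33.2 CPM in KU60019 15 d, fell without overlap (log2 fold change -0.74 ± 0.23, adjusted p = 0.0163). Bub1b fell from 10.4, 10.1 and 16.5 to 7.83, 8.58 and 8.85 CPM (log2 fold change -0.56 ± 0.19, adjusted p = 0.0275). The counts moved with single libraries: 6 members were called without library S1 or without library S2 of DMSO 15 d, and 1 without any other single library of the 2 groups. Without S3 of DMSO 15 d or S4 of KU60019 15 d both falls were lost and the 1 call was a rise, that of Aurka. Libraries were lower without overlap for 5 members and higher for none, while 22.8% of all genes were lower without overlap.

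Mki67 was at 16.5, 22.03 and 22.4 CPM in KU60019 15 d, within the range of DMSO 15 d or just below it (log2 fold change -0.44 ± 0.23, adjusted p = 0.158). Cdk1 was at 33.6, 40.2 and 39.6 CPM and overlapped with its control (log2 fold change 0.20 ± 0.23, adjusted p = 0.526). The lowest values belonged to Prc1 (log2 fold change -0.87 ± 0.47, adjusted p = 0.169) and Kif20a (log2 fold change -0.87 ± 0.48, adjusted p = 0.184), neither of them called, and the highest to Birc5 (log2 fold change 0.45 ± 0.21, adjusted p = 0.115), Ube2c (log2 fold change 0.44 ± 0.35, adjusted p = 0.363) and Aurka, a kinase of the spindle poles (log2 fold change 0.40 ± 0.18, adjusted p = 0.101). The standard errors of these members, at 0.18 to 0.48, bound what 3 libraries a group could show.

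After 35 d 1 of 43 members fell and none rose, in a comparison that called 18.1% of all genes (9.7% rose and 8.4% fell). Cdc20 went from 8.35, 10.7 and 7.04 CPM in DMSO 35 d to 5.47, 6.05 and 4.68 CPM in KU60019 35 d, with all KU60019 libraries lower (log2 fold change -0.68 ± 0.20, adjusted p = 0.0230). That call was lost without library S14 of DMSO 35 d and without library S16 or S18 of KU60019 35 d. The count was 2 without library S15 of DMSO 35 d or library S17 of KU60019 35 d. With the end number as a block 2 members were called, Cdc20 and Racgap1, a central spindle protein. Limma on log2(TPM + 1) called 7 members and 30.1% of all genes. Libraries were lower without overlap for 7 members, against 23.5% of all genes. The median of the members was -0.26 (range -1.15 to 0.24), and 35 of 43 lay below 0. Of 5 Schwann cell markers tested 4 rose, with a summed level of 3.35 to 5.32 CPM in DMSO 35 d and 11.4 to 103.6 CPM in KU60019 35 d. Of 5 macrophage markers tested 2 rose (18.2 to 29.5 and 56.2 to 77.8 CPM), and 2 had log2 fold changes below 0 and were not called. Adgre1 and Ptprc were at 0 in DMSO 35 d, and 4 of 7 macrophage markers had counts in every KU60019 35 d library. The part of these markers in the members' values was not tested. Mki67 was at 13.9, 19.2 and 11.8 and 8.99, 13.7 and 9.50 CPM (log2 fold change -0.48 ± 0.24, adjusted p = 0.173), and Ccnb1 at 4.10, 5.34 and 4.25 and 3.92, 4.46 and 2.81 CPM (log2 fold change -0.28 ± 0.26, adjusted p = 0.485). Prc1 (log2 fold change -1.15 ± 0.48, adjusted p = 0.105), Kif11 (log2 fold change -0.89 ± 0.46, adjusted p = 0.189) and Kif20a (log2 fold change -0.77 ± 0.49, adjusted p = 0.298) had the lowest values, and Ttk, a checkpoint kinase (log2 fold change 0.24 ± 0.31, adjusted p = 0.620), Cenpa (log2 fold change 0.22 ± 0.30, adjusted p = 0.641) and Spc25 (log2 fold change 0.17 ± 0.19, adjusted p = 0.574) the highest.

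The effects at 35 d and at 15 d were compared by an interaction, in which edgeR and DESeq2 both called 0 members, while edgeR called 11.7% of all genes (7.11% higher and 4.58% lower). Without each of the libraries in turn, S2 among them, edgeR again called 0. At an unadjusted p under 0.05, 1 member was higher and 1 lower. The lowest differences were those of Ndc80, a kinetochore protein that grips microtubules (-0.62 ± 0.49), Kif2c (-0.62 ± 0.35) and Aurka (-0.60 ± 0.26), and the highest those of Bub1b (0.55 ± 0.26), Cenpf, a kinetochore and nuclear matrix protein (0.43 ± 0.37), and Ttk (0.43 ± 0.42), each as a log2 difference ± SE. None of these 6 passed the threshold.

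**Figure D4:**
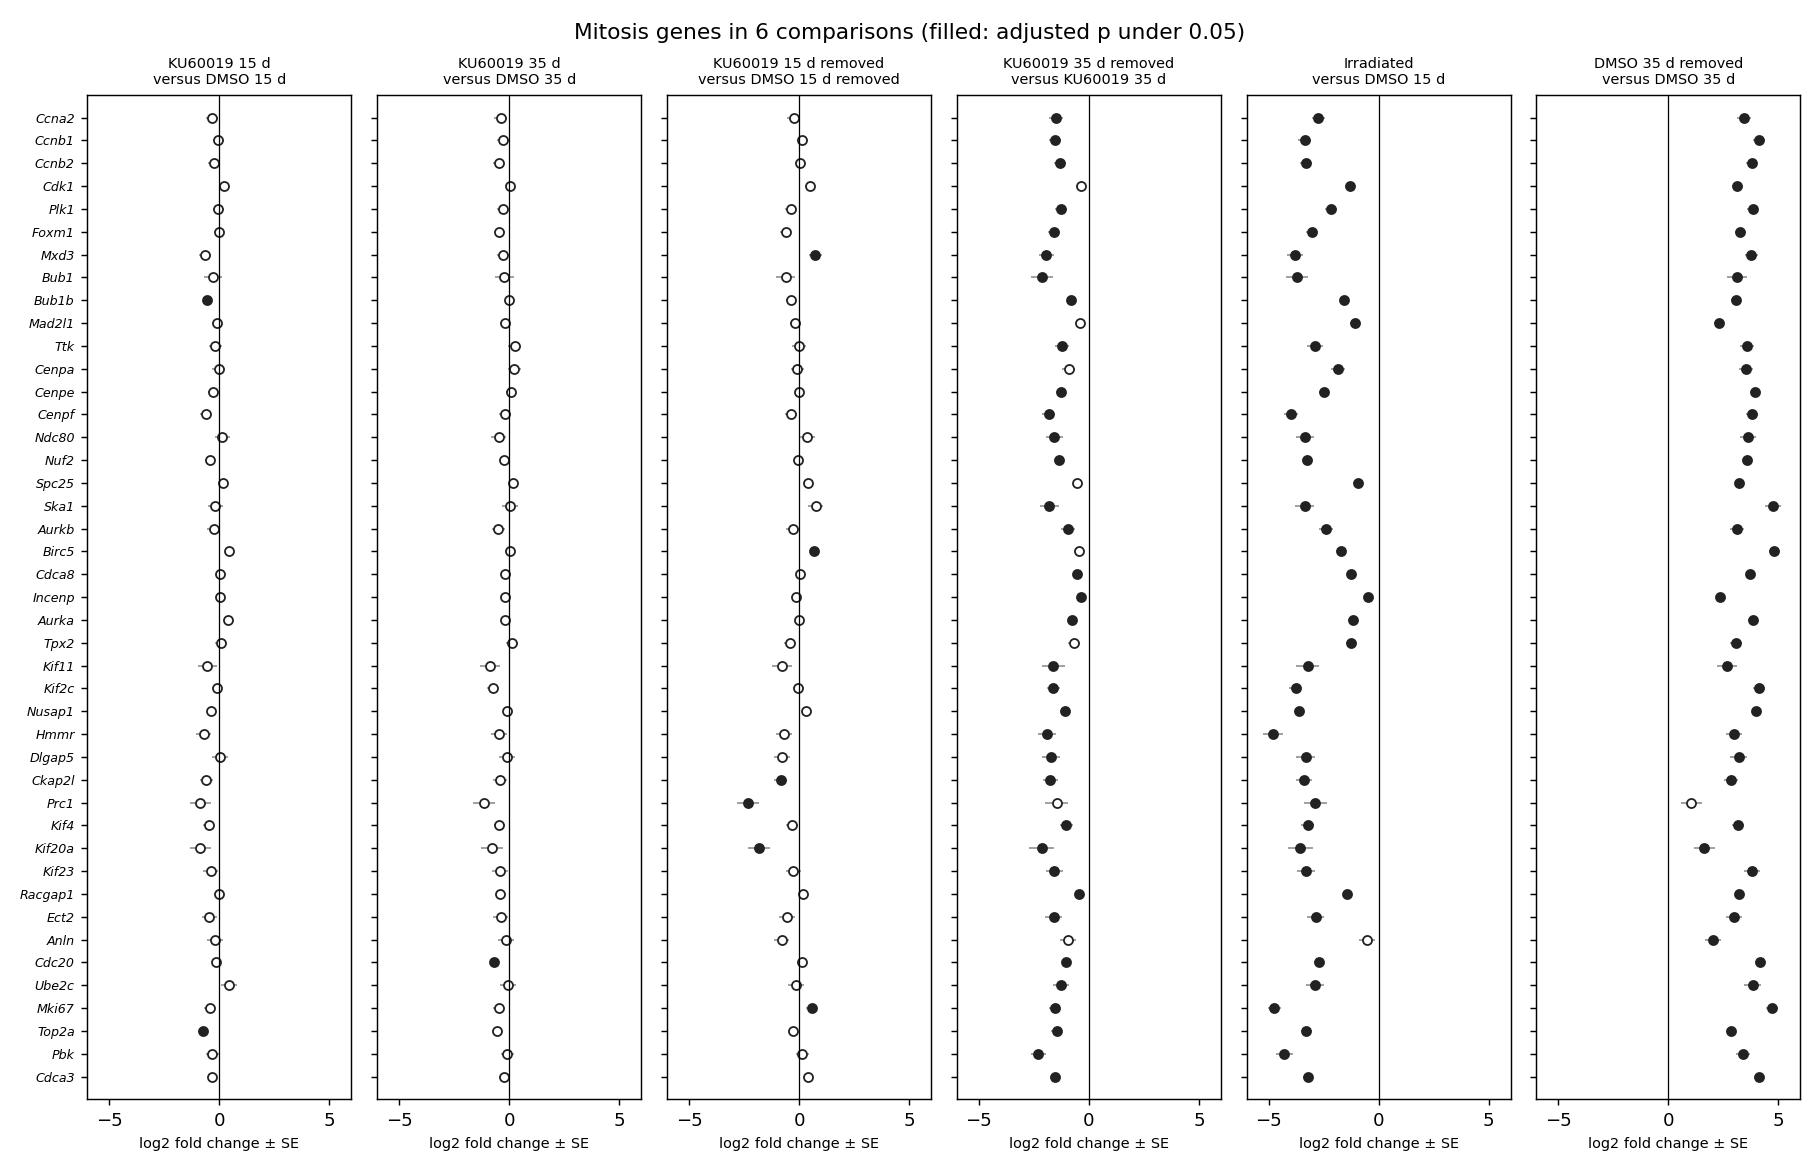
Log2 fold change ± SE of the 43 members in 6 comparisons, with filled points for adjusted p under 0.05 and open points otherwise. The points lie near 0 in the comparisons under continued KU60019, above 0 in DMSO 35 d removed against DMSO 35 d, and below 0 in irradiated cells and in KU60019 35 d removed.

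After 15 d of KU60019 and removal, members moved both ways against DMSO 15 d removed. Of 43, 3 rose and 3 fell, where 48.7% of all genes were called (24.7% rose and 24% fell). Birc5 was at 6.74, 5.68 and 6.21 CPM in DMSO 15 d removed and 11.4, 7.67 and 11.1 CPM in KU60019 15 d removed (log2 fold change 0.70 ± 0.22, adjusted p = 0.0127). Mki67 was at 19.6, 16.97 and 16.7 and 23.2, 29.4 and 26.5 CPM (log2 fold change 0.57 ± 0.24, adjusted p = 0.0490), and Mxd3 at 2.46, 2.06 and 2.16 and 4.08, 2.63 and 4.48 CPM (log2 fold change 0.74 ± 0.29, adjusted p = 0.0370). Every library of these 3 genes was higher after KU60019. Ska1 had the highest value and was not called (log2 fold change 0.76 ± 0.35, adjusted p = 0.0789).

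Prc1 fell from 12.1, 10.8 and 9.996 CPM to 2.90, 1.48 and 2.15 CPM (log2 fold change -2.32 ± 0.51, adjusted p = 0.00114), with all 3 libraries far below those of the control. Kif20a fell from 9.45, 8.12 and 7.86 to 2.90, 1.60 and 2.71 CPM (log2 fold change -1.81 ± 0.51, adjusted p = 0.00664), and Ckap2l, a spindle protein, from 7.496, 6.03 and 6.41 to 4.90, 3.08 and 3.08 CPM (log2 fold change -0.84 ± 0.32, adjusted p = 0.0325). Members were higher without overlap in 7 cases and lower in 15, against 26.5% and 30.3% of all genes. The count of 6 fell to 3 without library S7 or S9 of DMSO 15 d removed or library S12 of KU60019 15 d removed. By limma on log2(TPM + 1), 13 members fell and none rose, and with scaling to the library size alone 4 fell and none rose. Of all genes 61% and 46.6% were called there, with medians of -0.47 and -0.13. The calls of the 3 rises were lost in both of these alternatives, while RLE scaling kept all 6 calls. The calls of Mki67 and of Mxd3 were each lost on leaving out 5 of the 6 libraries, and that of Ckap2l on leaving out 4. In the same comparison 4 of 5 Schwann cell markers tested rose, with a summed level of 3.81 to 5.97 CPM in DMSO 15 d removed and 8.22 to 70.96 CPM in KU60019 15 d removed, and their part in the result was not tested.

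Against KU60019 15 d, before removal, 9 members fell and none rose in KU60019 15 d removed. Of all genes 40.3% were called (21.3% rose and 19% fell). Libraries were lower without overlap for 14 members and higher for 1, against 26.8% and 25.2% of all genes. The 9 members that fell were Plk1, Foxm1, Bub1, Incenp, Aurka, Tpx2, Dlgap5, Prc1 and Kif20a. Prc1 went from 6.30, 6.79 and 7.68 to 2.90, 1.48 and 2.15 CPM (log2 fold change -1.66 ± 0.51, adjusted p = 0.0129), Kif20a from 5.61, 5.97 and 6.62 to 2.90, 1.60 and 2.71 CPM (log2 fold change -1.33 ± 0.51, adjusted p = 0.0425) and Bub1 from 3.01, 4.65 and 5.27 to 2.51, 0.903 and 2.29 CPM (log2 fold change -1.18 ± 0.43, adjusted p = 0.0341). In each case library S11 of the removed group was the lowest. Without that library 2 members were called, and 4 without library S5 or S6 of KU60019 15 d. The highest values were those of Mki67 (log2 fold change 0.38 ± 0.23, adjusted p = 0.206), Ska1 (log2 fold change 0.24 ± 0.34, adjusted p = 0.603) and Mxd3 (log2 fold change 0.23 ± 0.28, adjusted p = 0.539), none of them called.

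In DMSO alone, culture for 35 d in place of 15 d left all 43 members with lower means, at a median log2 fold change of -0.69, and 2 fell, where 1.56% of all genes were called and 1.11% fell. Cenpf went from 6.84, 7.35 and 12.6 to 3.88, 5.78 and 3.41 CPM (log2 fold change -1.04 ± 0.26, adjusted p = 0.0414), and Nusap1, a spindle-bundling protein, from 6.20, 8.35 and 11.003 to 4.36, 5.56 and 4.84 CPM (log2 fold change -0.79 ± 0.20, adjusted p = 0.0450). The smallest differences were those of Anln (log2 fold change -0.25 ± 0.35, adjusted p = 1), Cdk1 (log2 fold change -0.22 ± 0.23, adjusted p = 1) and Incenp (log2 fold change -0.08 ± 0.10, adjusted p = 1), and the lowest besides Cenpf those of Bub1 (log2 fold change -0.97 ± 0.42, adjusted p = 0.427) and Mxd3 (log2 fold change -0.94 ± 0.28, adjusted p = 0.122). DESeq2 called 7 members and limma on log2(TPM + 1) none. Without library S1 of DMSO 15 d 10 members were called, without S2 of that group 1, and without S3, or without S13 or S15 of DMSO 35 d, none. Libraries were lower without overlap for 16 members, against 7.77% of all genes.

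After 15 d in DMSO and removal of the solvent, 2 of 43 members fell against DMSO 15 d and none rose, with 7.02% of all genes called (3.78% rose and 3.24% fell). Mxd3 went from 3.33, 6.41 and 5.34 to 2.46, 2.06 and 2.16 CPM (log2 fold change -1.17 ± 0.28, adjusted p = 0.0116) and Cdca3, which triggers breakdown of the mitosis inhibitor WEE1, from 9.95, 18.1 and 17.1 to 9.29, 9.06 and 9.48 CPM (log2 fold change -0.70 ± 0.21, adjusted p = 0.0412). The median was -0.45, and 42 of 43 members lay below 0. Bub1 (log2 fold change -0.87 ± 0.42, adjusted p = 0.272) and Ndc80 (log2 fold change -0.78 ± 0.35, adjusted p = 0.224) had low values that were not called, and Anln (log2 fold change 0.31 ± 0.35, adjusted p = 0.757), Prc1 (log2 fold change -0.21 ± 0.47, adjusted p = 0.899) and Cdca8, a passenger complex subunit (log2 fold change -0.23 ± 0.14, adjusted p = 0.430), the highest. DESeq2 called 6 members and limma on log2(TPM + 1) 1. Without library S1 of DMSO 15 d 11 members were called. The count was 1 without S3 of DMSO 15 d or S7 of DMSO 15 d removed, and 0 without S2, S8 or S9 of these groups. In both comparisons of DMSO groups all 6 endothelial markers fell from DMSO 15 d, and their part in the members' values was not tested.

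The 2 groups with the lowest levels were compared with each other. In irradiated cells 4 of 43 members fell against KU60019 35 d removed and none rose, where 6.93% of all genes were called and 3.42% fell. The median of the members was -0.60. Mki67 was at 3.32, 4.81 and 2.94 CPM in KU60019 35 d removed and 1.34, 0.935 and 0.754 CPM in irradiated cells (log2 fold change -1.83 ± 0.29, adjusted p = 4.14e-04). Nusap1 was at 2.32, 2.37 and 1.92 and 0.751, 0.906 and 0.355 CPM (log2 fold change -1.65 ± 0.25, adjusted p = 2.20e-04), Hmmr at 1.12, 1.51 and 0.694 and 0.429, 0.175 and 0.444 CPM (log2 fold change -1.66 ± 0.50, adjusted p = 0.0483), and Nuf2, another subunit of the NDC80 complex, at 1.39, 1.82 and 1.495 and 0.858, 0.584 and 1.02 CPM (log2 fold change -0.95 ± 0.26, adjusted p = 0.0283). In all 4 genes every irradiated library was lower. Members were lower without overlap in 15 cases and higher in 2, against 20.7% and 19% of all genes.

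The highest values in that comparison were those of Anln, at 6.98, 12.2 and 7.64 and 13.01, 18.6 and 15.1 CPM (log2 fold change 0.80 ± 0.36, adjusted p = 0.179), Prc1 (log2 fold change 0.34 ± 0.54, adjusted p = 0.734) and Aurka (log2 fold change 0.24 ± 0.19, adjusted p = 0.474), none of them called. The count was 2 without library S23 of KU60019 35 d removed or library S25 or S26 of irradiated cells. With the end number as a block it was 3, without Hmmr, and it was 7 by DESeq2 and 0 by limma on log2(TPM + 1). Irradiated cells were collected 10 d after exposure and the other group 20 d after removal, so that times differ as well as treatments.

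A list of 69 other mitosis genes, all tested, gave the surroundings of the 43. In irradiated cells 54 fell and 4 rose against DMSO 15 d, with a median of -1.48, where 16.8% and 14.1% of all genes did. The lowest were Depdc1b (log2 fold change -4.79 ± 0.80, adjusted p = 1.15e-04) and Pimreg (log2 fold change -4.43 ± 0.40, adjusted p = 6.66e-08). The highest were Psrc1, a microtubule-binding protein (log2 fold change 2.62 ± 0.14, adjusted p = 1.04e-10), and Pttg1, the securin that holds back separase (log2 fold change 1.02 ± 0.22, adjusted p = 0.00128), both of which rose. In KU60019 35 d removed 66 fell and 2 rose against DMSO 35 d removed (median -3.62), where 24.5% and 24.4% of all genes did. Psrc1 (log2 fold change 0.92 ± 0.13, adjusted p = 6.72e-06) and Pttg1 (log2 fold change 1.12 ± 0.22, adjusted p = 2.39e-04) were the 2 that rose. Depdc1b (log2 fold change -5.84 ± 0.64, adjusted p = 1.45e-07) and Shcbp1 (log2 fold change -5.70 ± 0.28, adjusted p = 5.36e-13) were the lowest. Against KU60019 35 d, 29 fell and 2 rose, with a median of -0.58, where 6.82% and 5.77% of all genes did. The 2 highest were Psrc1 (log2 fold change 0.74 ± 0.13, adjusted p = 0.00166) and Bora, an activator of Plk1 (log2 fold change 0.64 ± 0.19, adjusted p = 0.0327). In DMSO 35 d removed 67 of 69 rose against DMSO 35 d and none fell, with a median of 2.71. Of all genes 31.5% rose and 32.6% fell there.

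Under continued KU60019 for 15 d, 4 of the 69 rose and 9 fell, where 13.2% of all genes rose and 17.1% fell. Gtse1, a microtubule- and p53-binding protein (log2 fold change 1.32 ± 0.20, adjusted p = 5.01e-05), and Psrc1 (log2 fold change 1.000 ± 0.13, adjusted p = 1.07e-05) were the highest, and Smc4, a condensin subunit, the lowest (log2 fold change -0.96 ± 0.17, adjusted p = 2.62e-04). After 35 d 3 rose and 3 fell, where 9.7% and 8.4% of all genes did, among them Psrc1 (log2 fold change 1.26 ± 0.13, adjusted p = 1.28e-06) and Pttg1 (log2 fold change 0.88 ± 0.22, adjusted p = 0.00716), which rose, and Mybl2, the gene of B-MYB, which fell (log2 fold change -1.10 ± 0.25, adjusted p = 0.00372). In KU60019 15 d removed against its DMSO control 9 rose and 10 fell, where 24.7% and 24% of all genes did, with Cenpm (log2 fold change 1.31 ± 0.30, adjusted p = 0.00166) and Cenpw (log2 fold change 1.39 ± 0.27, adjusted p = 4.48e-04), both centromere proteins, the highest and Kpna2 (log2 fold change -1.22 ± 0.44, adjusted p = 0.0257) and Nek2 (log2 fold change -1.11 ± 0.45, adjusted p = 0.0441) the lowest.

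For 38 DNA replication genes, all tested, the counts ran the same way in the groups with large changes. In irradiated cells 22 fell and none rose (median -0.81), where 16.8% of all genes fell. In KU60019 35 d removed 37 fell and none rose against DMSO 35 d removed (median -2.64), where 24.5% of all genes fell. In DMSO 35 d removed 36 rose and none fell (median 2.67), where 31.5% of all genes rose. Against KU60019 35 d, 8 fell in KU60019 35 d removed and none rose (median -0.15), where 6.82% of all genes fell. Under KU60019 for 15 d, 9 replication genes rose and none fell, where 13.2% of all genes rose and 17.1% fell. After 15 d of KU60019 and removal 16 rose and 2 fell against DMSO 15 d removed, where 24.7% of all genes rose and 24% fell. The lists were not compared by a test.

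Of all other protein-coding genes, the 10 whose mean log2 levels over the 9 groups were most like the median of the members, by Pearson r, were Diaph3 (r = 0.997), Ncaph (r = 0.995), Kif15, Pkmyt1, E2f8, Pclaf, Cip2a, Sgo1, Kif14 and Depdc1a (r = 0.993). The first is a formin, and Ncaph is a subunit of condensin I. These correlations are over 9 group means and were used only to choose the names.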

How the data were processed

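RNA of the fibroblasts was prepared with Qiazol and miRNeasy and TruSeq kits, per the labels' protocols. The authors deposited raw counts per gene. The submitters' processing notes name featureCounts and mm10. A deposited table holds the TPM of each library. Neither aligner nor annotation release nor strand setting is given in the sources here, and reads of overlapping or antisense genes cannot be told apart. Symbols were matched for 48058 of 48440 gene IDs. GENCODE M21 held 40606 of the versioned IDs.

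The test was edgeR's quasi-likelihood F-test (version 4.0.16, R 4.3.3), robust, with TMM scaling, after filterByExpr at a minimum count of 10, and 1 model held all 27 libraries. Adjusted p-values are Benjamini-Hochberg values over 18684 genes, a gene was called under 0.05, and "rose" and "fell" are used of called genes. CPM are counts scaled by the TMM-adjusted library totals. Standard errors, taken as the log2 fold change over the root of F, are approximate.

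The members, the lists and the tests were chosen with earlier results of these data known. Named were a panel of 12 members, the 3 lowest and 3 highest members of each comparison, up to 2 lowest and 2 highest of the other mitosis genes, and the 10 genes most alike; every other gene named was chosen after its values were seen. Same-numbered libraries deviated together, at r over 0.1 in all 3 pairs, in KU60019 15 d against DMSO 15 d and in KU60019 35 d removed against KU60019 35 d only. No 2 libraries of a group agreed within counting noise. Alternatives were RLE scaling, library size alone, no filter, DESeq2 1.42.0, limma 3.58.1 on log2(TPM + 1) with TPM of at least 1 in 3 libraries, a length trend removed, the end number as block, the groups compared alone, each library left out, and other controls for irradiation. The analysis code was tested on simulated counts.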

Additional observations from a re-analysis of the deposited data

Results flagged for a closer look

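The effect of KU60019 on the mitosis genes differed between the groups before and after removal of the inhibitor, by the interaction test of edgeR over all genes. After 35 d the difference was called for 43 of 43 members, all lower after removal. Of all genes, 32.4% were called and 16.6% were called lower. This 35 d difference holds the rise of the members in DMSO 35 d removed (median log2 fold change 3.44 against DMSO 35 d). It also holds their fall in KU60019 35 d removed (median -1.35 against KU60019 35 d). After 15 d a difference was called for 2 of 43, Mki67 and Mxd3, both higher after removal, where 25.4% of all genes were called. Without library S3 of DMSO 15 d, however, 1 member was higher and 2 were lower. For Mki67 the KU60019 effect was -0.48 ± 0.24 at 35 d and -6.74 ± 0.30 after removal, and -0.44 ± 0.23 at 15 d and 0.57 ± 0.24 after removal, as log2 fold changes ± SE.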

How the results depend on the processing

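The calls turned in direction without library S3 or S4 in KU60019 15 d (1 rose in place of 2 that fell), and without S3 in the 15 d interaction (1 higher and 2 lower in place of 2 higher). The groups compared alone added 1 rise in irradiated cells against KU60019 35 d removed. The counts of members called in irradiated cells (42), in DMSO 35 d removed (42), in KU60019 35 d removed against its control (43) and in the 35 d interaction (43) stayed within 1.5 times. Leaving out 1 library gave 42 to 42, 41 to 43, 43 to 43 and 42 to 43 for these 4, 1 to 6 for KU60019 15 d, 0 to 2 for KU60019 35 d, 3 to 7 for KU60019 15 d removed against its control, 2 to 10 against KU60019 15 d, 16 to 33 for KU60019 35 d removed against KU60019 35 d, 0 to 10 for DMSO 35 d, 0 to 11 for DMSO 15 d removed, 1 to 4 for the 15 d interaction, 0 to 0 for the difference of KU60019 effects between 35 and 15 d, and 2 to 5 for irradiated cells against KU60019 35 d removed. Library size alone gave 1 (KU60019 15 d), 14 (KU60019 15 d removed against before), 1 (15 d interaction) and 2 (irradiated against KU60019 35 d removed). Of all genes it called 27.6%, 41.1%, 22.4% and 5.87% there, in the same order. No filter gave 1 for KU60019 15 d, DMSO 35 d and DMSO 15 d removed, and 2 for irradiated against KU60019 35 d removed. The shares of all genes in that fit were 13.4%, 0.731%, 3.07% and 2.61%. DESeq2 gave 2 (KU60019 35 d), 7 (DMSO 35 d), 6 (DMSO 15 d removed), 4 (15 d interaction) and 7 (irradiated against KU60019 35 d removed). Its shares of all genes were 20.1%, 2.05%, 8.32%, 30.5% and 10.6%. Limma on log2(TPM + 1) gave 7 (KU60019 35 d), 13 (KU60019 15 d removed), 0 (DMSO 35 d), 1 (DMSO 15 d removed), 11 (KU60019 35 d removed against before), 0 (15 d interaction) and 0 (irradiated against KU60019 35 d removed). Of all genes limma called 30.1%, 61%, 0.862%, 4.8%, 9.06%, 20.6% and 4.93% there, in the same order. Its median of all genes was -0.33 in KU60019 35 d and -0.47 in KU60019 15 d removed. The groups compared alone gave 1 (KU60019 15 d), 4 (KU60019 35 d), 0 (DMSO 35 d), 0 (DMSO 15 d removed) and 7 (irradiated against KU60019 35 d removed), and removing the length trend gave 8 for the last. Fits of the groups alone called 28%, 29.1%, 0.0839%, 4.7% and 17.9% of all genes there, and the fit without the length trend called 7.2%. With the replicate block 2 members were called in KU60019 15 d, 2 in KU60019 35 d, 3 in DMSO 35 d, 34 in KU60019 35 d removed against before and 3 in irradiated against KU60019 35 d removed, and the block moved no other count. The cause was not tested. Of the panel genes, 25 values kept their direction and lost their call in some alternative. The median of all genes in DMSO 35 d removed was -0.04 with TMM, -0.29 with library size alone and -0.67 with TPM, where the members' median was 2.18, and in KU60019 35 d removed against its control it was 0.29 with library size alone. Members at under 1 CPM, as in irradiated cells, limit the precision of the largest falls.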
